A study of Mus musculus with 91 samples.

Results

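Carboxylesterases are hydrolases of the endoplasmic reticulum of liver cells that split ester and amide bonds of drugs and of the cell's own lipids. Mouse genes of the Ces1 family include hydrolases of stored triacylglycerol that feed the assembly of very low density lipoprotein (VLDL), and Ces2 enzymes hydrolyse acylglycerols as well as drug esters. Several of the genes are known targets of the nuclear receptors CAR and PXR, which sense foreign chemicals. The 8 genes described here, Ces1d, Ces1e, Ces1f, Ces1g, Ces2a, Ces2c, Ces2e and Ces3a, were chosen by symbol, and their probe sets were taken from the platform annotation. Of these 8, 6 had a probe set that names no other gene, among 18193 genes measured in this way. No probe set named here belonged to Ces2c. The 1 probe set of Ces3a also names Ces3b, and it is given below as the shared Ces3a and Ces3b probe set. All 8 genes lie on mouse chromosome 8 in 2 clusters (GRCm38.p6 annotation), with Ces1d, Ces1e, Ces1f and Ces1g between 93166072 and 93337209, and Ces2a, Ces2c, Ces2e and Ces3a between 104734003 and 105061928.

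The livers came from 91 adult male mice in 19 groups, 1 array per mouse, and every compound was given once a day unless it was in water or food. Mice of the strain C57BL/hCAR/hPXR, which are humanised for CAR and PXR, received CITCO, an activator of human CAR, by injection into the peritoneum at 10 mg/kg for 28 days, and their controls received carboxymethylcellulose (CMC). C57BL mice received the same dose of CITCO, with CMC cohort Co4 as control. Other C57BL mice had phenobarbital, an activator of CAR, in drinking water at 0.05% (w/v) for 28 or 56 days, with water controls of the same day. Cyproterone acetate, a steroid known to activate PXR in rodents, was given by gavage at 160 mg/kg and 1,4-dichlorobenzene by gavage at 600 mg/kg, each for 28 days, and these treatments shared 1 corn oil control group. Piperonyl butoxide was injected into the peritoneum at 600 mg/kg (control CMC cohort Co2), the PPAR-alpha activator Wy-14643 was given by gavage at 100 mg/kg (Co1), and the PPAR-gamma activator pioglitazone by gavage at 100 mg/kg (Co5). Methapyrilene was in the food at 1000 ppm, although the control named for it, Co3, is a CMC cohort. Groups held 5 mice, except those given piperonyl butoxide and the cohorts Co1, Co3 and Co5, which held 4.

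Values are log2 expression levels per probe set, on which a difference of 1 is a 2-fold change. Changes are given as treated minus control with the standard error (SE) of a limma model over all 91 arrays. A change passed when its p-value was below 0.05 after adjustment by the method of Benjamini and Hochberg, within each comparison, over all 18193 genes. Levels of different probe sets were not set against each other. The hepatocyte marker list, 10 of 14 genes measured, averaged between 13.81 and 14.12 in the 19 groups. In whole liver, fewer cells of a type and less RNA per cell cannot be told apart. Precision is limited by the 4 or 5 arrays in a group.

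Of the 5 promoters of the listed genes in the RefSeq promoter table (GRCm38.p6), 4 are printed, since Ces2a and Ces1g passed in several treatments and Ces2e and Ces1e are members of the same clusters that passed in none or only 1. Each sequence covers 250 bases before to 50 bases after the start of the gene, written 5′ to 3′ on the strand of the gene, and capitals mark AGGTCA, a core motif bound by many nuclear receptors, AGTTCA, a variant of it, and TATAAA, all searched on both strands.
Ces2a: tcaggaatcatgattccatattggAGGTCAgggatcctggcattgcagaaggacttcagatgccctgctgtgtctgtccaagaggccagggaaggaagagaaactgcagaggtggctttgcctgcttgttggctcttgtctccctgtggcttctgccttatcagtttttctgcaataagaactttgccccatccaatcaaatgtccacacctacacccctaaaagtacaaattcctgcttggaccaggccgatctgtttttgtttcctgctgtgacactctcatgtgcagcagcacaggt
Ces2e: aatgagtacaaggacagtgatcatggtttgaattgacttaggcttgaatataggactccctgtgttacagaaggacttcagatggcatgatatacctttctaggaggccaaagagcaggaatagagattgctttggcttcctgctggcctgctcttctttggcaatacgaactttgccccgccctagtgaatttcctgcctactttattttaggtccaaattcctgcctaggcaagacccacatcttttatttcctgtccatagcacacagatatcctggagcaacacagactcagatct
Ces1g: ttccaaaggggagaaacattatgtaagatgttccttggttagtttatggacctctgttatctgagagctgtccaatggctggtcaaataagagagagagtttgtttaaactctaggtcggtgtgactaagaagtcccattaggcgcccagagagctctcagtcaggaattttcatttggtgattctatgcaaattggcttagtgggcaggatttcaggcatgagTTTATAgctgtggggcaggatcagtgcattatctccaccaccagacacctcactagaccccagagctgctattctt
Ces1e: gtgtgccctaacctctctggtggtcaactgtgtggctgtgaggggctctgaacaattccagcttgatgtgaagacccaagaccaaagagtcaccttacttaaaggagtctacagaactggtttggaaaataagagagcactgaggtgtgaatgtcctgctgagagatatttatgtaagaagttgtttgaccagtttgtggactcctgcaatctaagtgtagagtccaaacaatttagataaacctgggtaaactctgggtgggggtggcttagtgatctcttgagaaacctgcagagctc
The Ces2a promoter (chr8:104733753-104734052, plus strand) held AGGTCA at bases -226 to -221 from the start, a motif found on either strand in 16.3% of 32851 promoters of the same length. The Ces2e promoter (chr8:104926010-104926309, plus strand), the Ces1g promoter (chr8:93337160-93337459, minus strand) and the Ces1e promoter (chr8:93229570-93229869, minus strand) held no match to AGGTCA or AGTTCA, of which AGTTCA occurs in 14.0% of promoters. The Ces1g promoter held TATAAA on its opposite strand at -26 to -21, a motif found in 13.6% of promoters. The longest stretch shared by any pair of these promoters was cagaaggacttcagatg, of 17 bases, at -205 to -189 in Ces2a and at -183 to -167 in Ces2e. These are matches of letters, and binding was not measured.

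Some groups stood apart or went against their labels. In pioglitazone-labelled livers Cyp2b10, the standard readout of CAR, was 6.06 ± 0.495 higher than in Co5 livers (SE, adjusted p = 1.17e-15, limma), and Cidec, a lipid droplet gene induced through PPAR-gamma, was at 4.10, against 4.70 in Co5 livers. In methapyrilene-labelled livers Cidec was higher by 2.55 ± 0.44 (SE, adjusted p = 0.000348, limma) and Cyp2b10 was at 5.67, against 6.03 in Co3 livers. Both groups are therefore named by their labels only, and no direction below is ascribed to either compound. Livers of the CMC cohort Co2 and of the piperonyl butoxide group had the lowest levels of several carboxylesterase genes, and their 7 measured neutrophil markers averaged 7.20 and 6.60, against 5.15 to 5.96 in the other 17 groups. The 23 measured acute phase genes averaged 13.44 in CMC-treated hCAR/hPXR livers and 13.25 in Co4 livers, against 10.96 to 12.54 in the other groups.

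Ces2a, a hydrolase of drug esters and acylglycerols, was the member that passed most often. It rose in 6 of 10 treatments, fell in 1 and did not pass in 3. In cyproterone acetate livers Ces2a stood at 14.23, 13.85, 14.02, 14.33 and 13.98, against 11.70, 12.50, 12.37, 12.39 and 12.23 in corn oil livers. All 5 treated livers were above all 5 controls by more than 1 log2 unit. The rise of 1.85 ± 0.121 (SE, n = 5 and 5), or 3.60-fold, had an adjusted p of 1.68e-21 (limma). In this comparison 3 of 6 members and 5.32% of all genes passed, and the groups did not overlap in 3 of 6 members and 4.87% of all genes.

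Piperonyl butoxide livers held Ces2a at 13.35, 13.93, 13.47 and 13.31, against 11.95, 11.66, 12.08, 11.87 and 11.95 in Co2 livers. The ranges did not overlap, and the rise was 1.61 ± 0.129 (SE, n = 4 and 5), or 3.05-fold, with an adjusted p of 3.9e-16 (limma). Here 1 of 6 members and 0.808% of all genes passed, and 1 member and 2.51% of all genes did not overlap between the groups. Set against the mean of all 5 CMC cohorts the rise of Ces2a was 1.32 (adjusted p = 7.97e-17, limma).

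After 28 days of phenobarbital Ces2a was at 13.58, 13.52, 13.24, 13.82 and 13.39, against 12.33, 12.06, 12.17, 12.38 and 12.48 in water livers. Each treated liver lay above every control, and the rise was 1.22 ± 0.121 (SE, n = 5 and 5), or 2.34-fold, with an adjusted p of 2.97e-12 (limma). At 28 days 2 of 6 members and 0.967% of all genes passed, and 3 members and 3.85% of all genes did not overlap. At 56 days the values were 13.37, 13.51, 13.66, 13.47 and 13.48, against 12.45, 12.29, 12.50, 12.85 and 12.55 in water livers of that day. The groups again did not overlap, with a rise of 0.97 ± 0.121 (SE) and an adjusted p of 1.4e-08 (limma). At that time 1 of 6 members and 0.566% of all genes passed, and 2 members and 2.99% of all genes did not overlap. The response of Ces2a at 56 days minus that at 28 days was -0.25 ± 0.172 (SE, 95% interval -0.59 to 0.09). In limma no member and 0% of all genes passed the test of that difference, against 1 member, Ces1g, and 879 genes with an unadjusted p below 0.05.

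CITCO raised Ces2a in hCAR/hPXR livers. The treated livers were at 13.15, 13.21, 13.44, 13.27 and 13.21, against 12.66, 12.71, 12.40, 12.22 and 12.80 in CMC-treated livers of that strain. The lowest treated liver was above the highest control, and the rise was 0.70 ± 0.121 (SE, n = 5 and 5), or 1.62-fold, with an adjusted p of 0.000729 (limma). Of the 6 members 1 passed, as did 0.0989% of all genes, and the groups did not overlap in 1 member and 2.02% of all genes. In C57BL livers Ces2a was at 12.24, 12.17, 12.17, 12.32 and 12.00 after CITCO, against 12.27, 12.21, 12.02, 11.58 and 12.11 in Co4 livers. These ranges overlapped, and the difference of 0.14 ± 0.121 (SE, 95% interval -0.10 to 0.38) did not pass. In limma none of the 6 members and 0.0055% of all genes passed there. An unadjusted p below 0.05 was found for 1 member, Ces2e, and for 874 of all 18193 genes. The response in hCAR/hPXR livers minus that in C57BL livers was 0.56 ± 0.172 (SE, 95% interval 0.21 to 0.90), with an unadjusted p of 0.00177 (limma) that did not pass over all genes (0.0055% passed). The 1 gene that did pass was among the 10 measured receptor readout genes. Among CMC-treated livers Ces2a was also higher in hCAR/hPXR livers than in Co4 livers, at 12.56 ± 0.24 and 12.04 ± 0.27 (SD, n = 5 each), a difference of 0.52 ± 0.121 (SE, adjusted p = 0.041, limma, 0.126% of genes passed), with overlapping ranges. That call did not hold when only these groups were fitted (adjusted p = 0.495) or when any of 7 single control livers was left out, mice 1, 2, 3 and 5 of the hCAR/hPXR group and mice 3, 4 and 5 of Co4, where adjusted p ranged from 0.0539 to 0.225.

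1,4-Dichlorobenzene livers held Ces2a at 12.55, 12.64, 12.78, 12.76 and 13.02, against 11.70, 12.50, 12.37, 12.39 and 12.23 in corn oil livers. The groups were separated by a narrow gap, and the rise was 0.52 ± 0.121 (SE, adjusted p = 0.00388, limma). In this comparison 2 of 6 members and 3.83% of all genes passed, and 3 members and 4.28% of all genes did not overlap. Without corn oil mouse 1, the lowest control, the rise was 0.38 (adjusted p = 0.0628), and with only this pair of groups fitted the adjusted p was 0.0828. Cyproterone acetate and 1,4-dichlorobenzene differed directly, with Ces2a at 14.08 ± 0.19 in cyproterone acetate livers and at 12.75 ± 0.18 in 1,4-dichlorobenzene livers (SD, n = 5 each). The difference was 1.33 ± 0.121 (SE, adjusted p = 2.4e-14, limma). Of the 6 members 1 passed and of all genes 4.11%, and 2 members and 3.17% of all genes did not overlap. The doses of the compounds were not the same.

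Wy-14643 was the treatment after which Ces2a fell. The treated livers were at 11.52, 11.84, 11.56, 11.68 and 11.23, against 12.40, 12.42, 12.46 and 12.51 in Co1 livers. All 5 treated livers lay below the control range, and Ces2a fell by 0.88 ± 0.129 (SE, n = 5 and 4) with an adjusted p of 3.61e-07 (limma). Of the 6 members 1 passed, against 10.6% of all genes, and the groups did not overlap in 1 member and 9.17% of all genes. In the same livers 9 of 14 macrophage markers passed as higher, with the list at 7.42 to 8.73 in Wy-14643 livers and at 6.74 to 7.27 in Co1 livers; their part in the fall was not tested. In pioglitazone-labelled livers Ces2a was at 12.50, 12.71, 12.47, 12.88 and 12.54, against 12.22, 12.22, 12.20 and 12.41 in Co5 livers. All 5 were above the control range, but the difference of 0.36 ± 0.129 (SE, adjusted p = 0.401, limma) did not pass. None of the 6 members and 0.022% of all genes passed there, and 1 member and 3.63% of all genes did not overlap. An unadjusted p below 0.05 was found for 2 members, Ces1g and Ces2a, and for 1394 of all 18193 genes (limma). In methapyrilene-labelled livers Ces2a was at 12.00, 11.66, 11.83, 12.13 and 11.70, against 12.35, 12.25, 12.21 and 12.48 in Co3 livers. All 5 were below the control range, and the difference of -0.46 ± 0.129 (SE, adjusted p = 0.171, limma) did not pass. None of the 6 members and 0.181% of all genes passed there, and 1 member and 2.58% of all genes did not overlap. An unadjusted p below 0.05 was found for 1 member, Ces2a, and for 1224 of all 18193 genes (limma).

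**Figure D1:**
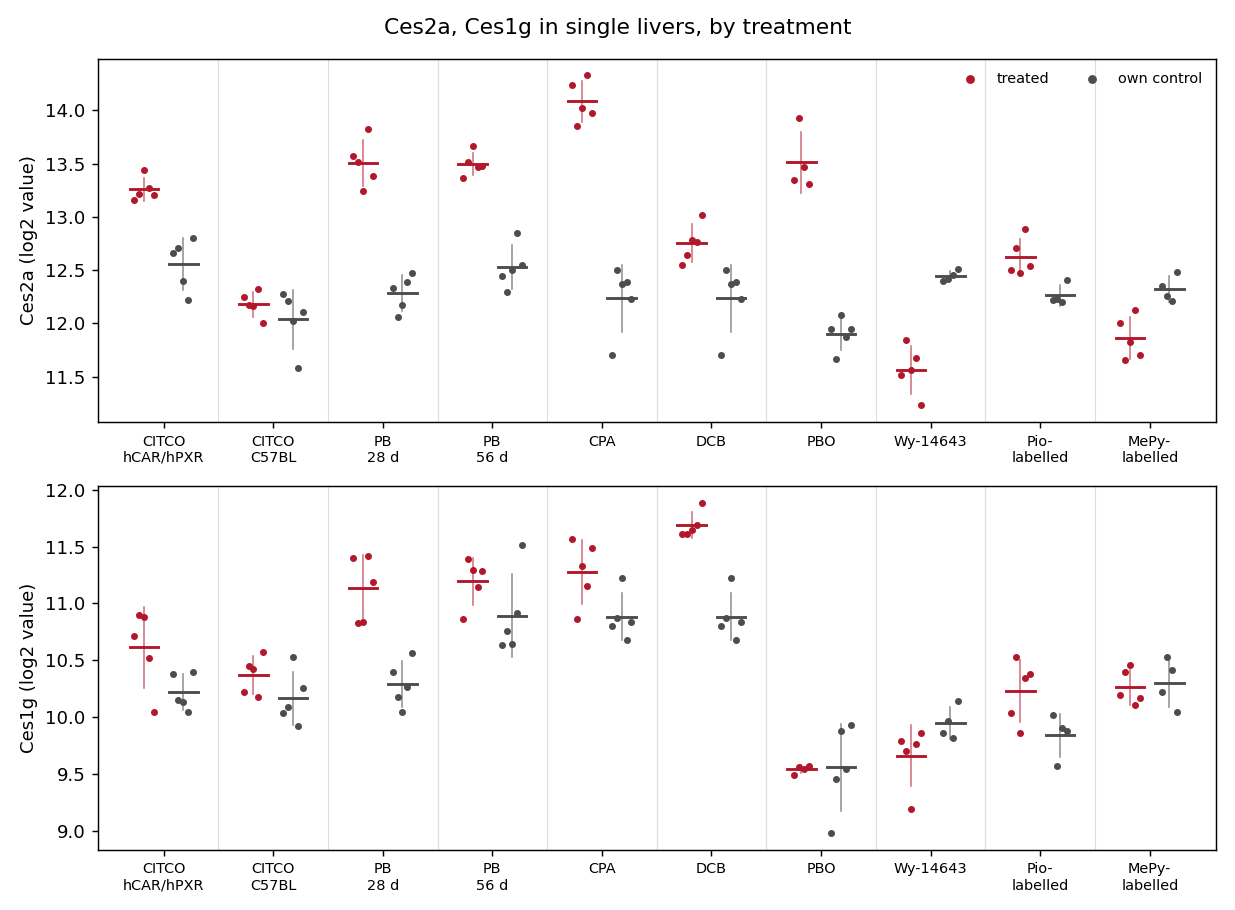
Log2 values of Ces2a (upper panel) and Ces1g (lower panel) in single livers, treated groups in red left of their own controls in grey, with means (bars) and SD (lines); PB is phenobarbital, CPA cyproterone acetate, DCB 1,4-dichlorobenzene, PBO piperonyl butoxide, Pio pioglitazone and MePy methapyrilene, in all plots. Cyproterone acetate livers hold Ces2a at 13.85 to 14.33 against 11.70 to 12.50 in corn oil livers, while Wy-14643 livers lie below their controls.

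Over the 19 groups Ces2a ranged between 14.08 in cyproterone acetate livers and 11.57 in Wy-14643 livers. Of 18 pairs of neighbours in that order, 15 lay within the 95% limit of a difference between 2 groups at the pooled spread (SD 0.195). The 3 gaps beyond it lay between cyproterone acetate (14.08) and piperonyl butoxide (13.51), between CITCO in hCAR/hPXR livers (13.26) and 1,4-dichlorobenzene (12.75), and between methapyrilene-labelled (11.86) and Wy-14643 livers (11.57). Piperonyl butoxide and both times of phenobarbital, all between 13.50 and 13.51, could not be ordered.

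The Ces2a values can be set beside readouts of CAR and PXR in the same livers. Cyp2b10 was higher by 7.93 after 28 days of phenobarbital, by 6.47 after 1,4-dichlorobenzene, by 5.60 after cyproterone acetate and by 2.70 after piperonyl butoxide, each past the threshold. Cyp3a11, the standard readout of PXR, was higher by 0.51 after piperonyl butoxide, by 0.33 after cyproterone acetate, by 0.27 after CITCO in hCAR/hPXR livers and by 0.21 after 28 days of phenobarbital, and these also passed. Group means of Cyp3a11 in these comparisons lay between 14.40 and 14.93, near the highest value in the table, 15.34. In the direct comparison of cyproterone acetate with 1,4-dichlorobenzene, Cyp2b10 differed by -0.88 (adjusted p = 0.388, limma) and did not pass, Cyp3a11 by 0.17 (adjusted p = 0.0431) and Ces2a by 1.33. In pioglitazone-labelled livers Cyp2b10 was higher by 6.06 and Cyp3a11 differed by -0.03, which did not pass, beside the Ces2a difference of 0.36.

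**Figure D2:**
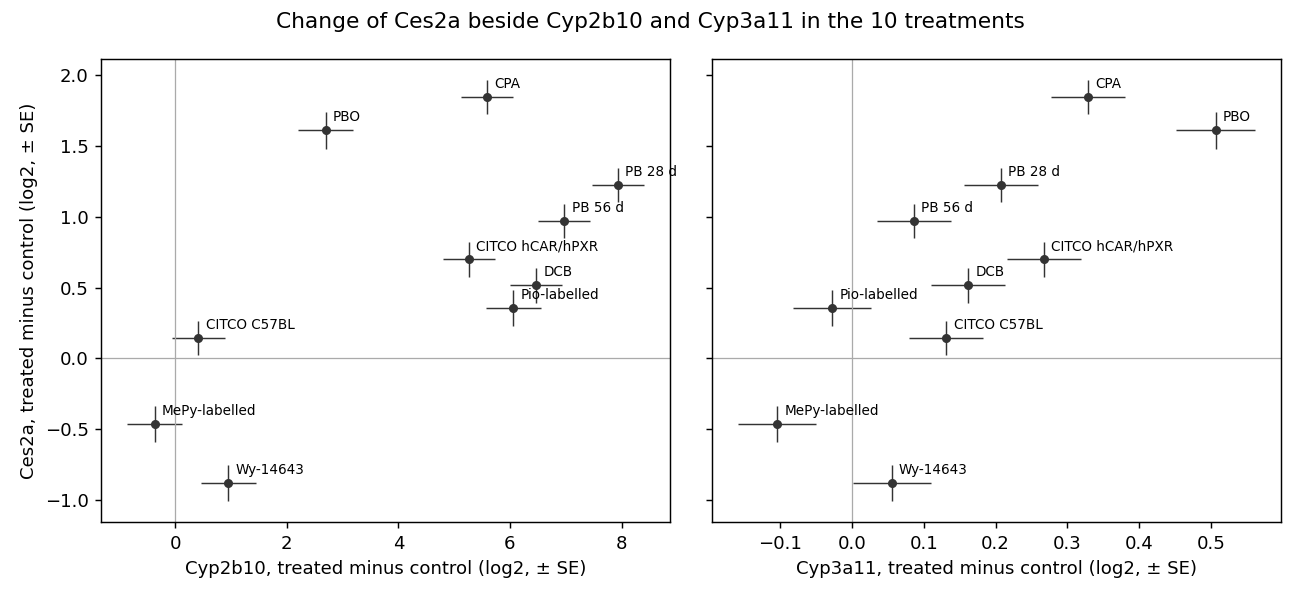
Change of Ces2a (vertical axis, treated minus control, log2) beside the change of Cyp2b10 (left) and of Cyp3a11 (right) in the 10 treatments, with SE bars on both axes. Piperonyl butoxide combines a Ces2a rise of 1.61 with a Cyp2b10 rise of 2.70 and a Cyp3a11 rise of 0.51, and 1,4-dichlorobenzene a Ces2a rise of 0.52 with a Cyp2b10 rise of 6.47.

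Ces1g, an esterase known in mice to limit fat in liver and blood, rose in 2 of 10 treatments. After 28 days of phenobarbital it was at 11.40, 10.83, 10.83, 11.42 and 11.19, against 10.40, 10.18, 10.04, 10.27 and 10.57 in water livers. No treated liver reached down into the control range, and the rise was 0.84 ± 0.151 (SE, n = 5 and 5), or 1.79-fold, with an adjusted p of 0.000187 (limma). 1,4-Dichlorobenzene livers held Ces1g at 11.61, 11.61, 11.64, 11.69 and 11.88, against 10.80, 10.87, 11.23, 10.68 and 10.84 in corn oil livers. The treated livers were close together and all above the controls, with a rise of 0.81 ± 0.151 (SE, n = 5 and 5) and an adjusted p of 0.000146 (limma). Cyproterone acetate livers were at 11.28 ± 0.28, against 10.88 ± 0.21 in corn oil livers (SD, n = 5 each), and that difference of 0.40 did not pass (adjusted p = 0.113, limma). In the direct comparison every cyproterone acetate liver was below every 1,4-dichlorobenzene liver for Ces1g, by 0.41 on average (adjusted p = 0.123, limma), which did not pass. The order of these treatments was thus opposite in Ces1g and Ces2a, with the test passed for Ces2a and not for Ces1g.

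At 56 days of phenobarbital Ces1g was at 10.86, 11.39, 11.29, 11.14 and 11.29, against 10.63, 10.75, 10.65, 10.91 and 11.51 in water livers. The ranges overlapped, and the difference of 0.30 ± 0.151 (SE, adjusted p = 0.732, limma) did not pass. The treated level was 11.19 at 56 days and 11.13 at 28 days, while the water controls were at 10.89 and 10.29. Water livers of 56 days lay above all those of 28 days in Ces1g, by 0.60 ± 0.151 (SE, adjusted p = 0.111, limma), which did not pass. Between these water groups 0.033% of all genes passed, and 1 member and 1.81% of all genes did not overlap. The response at 56 days minus that at 28 days was -0.54 ± 0.214 (SE, 95% interval -0.96 to -0.11, unadjusted p = 0.0137) and did not pass over all genes. In piperonyl butoxide livers Ces1g was at 9.49, 9.56, 9.55 and 9.58, against 8.98, 9.45, 9.88, 9.55 and 9.93 in Co2 livers, with a difference of -0.01 ± 0.16 (SE). These livers, in which Ces2a rose most after cyproterone acetate livers, thus had the lowest group mean of Ces1g, 9.54, with the Co2 controls at 9.56.

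Ces1d, which hydrolyses stored triacylglycerol for VLDL assembly, passed in none of 10 treatments in limma, with an unadjusted p below 0.05 in 4. In phenobarbital livers of 28 days it was at 13.34, 13.32, 13.03, 13.35 and 13.05, against 12.90, 12.75, 12.36, 12.75 and 12.54 in water livers. At 56 days it was at 13.52, 13.35, 13.24, 13.42 and 13.28, against 12.57, 12.62, 12.60, 12.87 and 13.12 in water livers. Neither pair of groups overlapped, and the differences were 0.56 ± 0.194 and 0.60 ± 0.194 (SE), with adjusted p = 0.211 and 0.21 (limma). With only the groups of each comparison in the fit, Ces1d passed at 28 days (adjusted p = 0.01) and at 56 days (adjusted p = 0.0113). After CITCO in hCAR/hPXR livers Ces1d was at 13.07 ± 0.23, against 12.38 ± 0.37 in CMC-treated livers (SD, n = 5 each), a difference of 0.69 that did not pass (adjusted p = 0.183, limma). Ces1d has 3 probe sets, which differed there by 0.69, 0.67 and 0.89, and of these the second passed when all 45037 probe sets were tested (adjusted p = 0.0421). After CITCO in C57BL livers the Ces1d difference was 0.03 ± 0.194 (SE), and the response in hCAR/hPXR livers minus that in C57BL livers was 0.66 (95% interval 0.11 to 1.20, unadjusted p = 0.0189), which did not pass.

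Ces1e, known as egasyn, which holds beta-glucuronidase in the endoplasmic reticulum, and Ces1f, another Ces1 hydrolase of liver lipids, fell in 1 of 10 treatments, cyproterone acetate. Ces1e was at 10.30, 9.52, 9.86, 9.99 and 9.75 in cyproterone acetate livers, against 10.56, 10.43, 10.59, 10.69 and 10.60 in corn oil livers. Every treated liver was below every control, and Ces1e fell by 0.69 ± 0.188 (SE, n = 5 and 5, adjusted p = 0.015, limma). Ces1f was at 12.56, 11.90, 12.60, 12.34 and 12.08, against 12.82, 12.84, 12.83, 12.74 and 12.74 in corn oil livers. It fell by 0.50 ± 0.134 (SE, n = 5 and 5, adjusted p = 0.0141, limma), again without overlap. Mice 2 and 5 of the treated group, with the lowest Ces1e and Ces1f, had acute phase genes at 13.49 and 13.46 on average, against 11.68 to 11.79 in the other 3 treated livers and 11.30 to 12.40 in corn oil livers. Mouse 2 also had the lowest mean correlation with its own group among all 91 arrays, 0.973. Without mouse 2 the differences of Ces1e and Ces1f were -0.60 and -0.40 and neither passed (adjusted p = 0.0784 and 0.104, limma). With all 91 arrays, mouse 2 included, 5 of 23 acute phase genes passed as higher after cyproterone acetate, against 5.32% of all genes that passed. The part of the acute phase genes in the falls was not tested. Of 10 hepatocyte markers 3 passed as lower after cyproterone acetate, with the list at 13.78 to 14.08, against 14.09 to 14.15 in corn oil livers. After 1,4-dichlorobenzene 3 also passed as lower, with the list at 13.77 to 14.09. Of all genes 5.32% and 3.83% passed in these comparisons. The part of the hepatocyte markers in the changes of Ces1e and Ces1f after cyproterone acetate, and of Ces1g and Ces2a after 1,4-dichlorobenzene, was not tested. After 1,4-dichlorobenzene 5 of 23 acute phase genes passed as lower, against 3.83% of all genes that passed. The part of the acute phase genes in the changes of Ces1g and Ces2a there was not tested. With only cyproterone acetate and corn oil livers in the fit Ces1f did not pass (adjusted p = 0.0698, limma).

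In 1,4-dichlorobenzene livers, which share the corn oil controls, Ces1f was at 12.45, 12.53, 12.65, 12.32 and 12.50. All 5 were below the corn oil range of 12.74 to 12.84, and the difference of -0.31 ± 0.134 (SE, adjusted p = 0.233, limma) did not pass. Ces1e was at 10.29 ± 0.30 there, against 10.57 ± 0.09 in corn oil livers (SD, n = 5 each), with overlap. After CITCO in hCAR/hPXR livers Ces1e was at 10.44, 10.98, 10.83, 10.03 and 10.40, against 10.35, 10.26, 9.08, 9.57 and 9.97 in CMC-treated livers. The difference of 0.69 ± 0.188 (SE, adjusted p = 0.151, limma) did not pass, and it did without control mouse 1 (0.82, adjusted p = 0.0458). The controls with the lowest Ces1e, mice 3 and 4, had acute phase genes at 13.88 and 14.06, against 13.01 to 13.18 in the other 3 controls. Ces1f differed by 0.45 ± 0.134 (SE, adjusted p = 0.227, limma) in that comparison, with overlap.

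Ces2e, a further esterase of the Ces2 cluster, passed in none of 10 treatments in limma, with an unadjusted p below 0.05 in 2, and its differences lay between -0.44 after cyproterone acetate and 0.64 after CITCO in C57BL livers. Its livers overlapped with the controls in every comparison. After CITCO in C57BL livers it was at 9.30, 9.92, 9.92, 9.79 and 10.14, against 9.12, 9.01, 9.83, 8.95 and 8.97 in Co4 livers (adjusted p = 0.875, limma), and after CITCO in hCAR/hPXR livers the difference was 0.63 ± 0.232 (SE, adjusted p = 0.45, limma). The response of Ces2e in hCAR/hPXR livers minus that in C57BL livers was -0.01 (95% interval -0.67 to 0.64). Ces2a and Ces2e share a cluster, but where Ces2a rose by 1.85, 1.61 and 1.22 after cyproterone acetate, piperonyl butoxide and 28 days of phenobarbital, Ces2e differed by -0.44, 0.47 and -0.13.

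**Figure D3:**
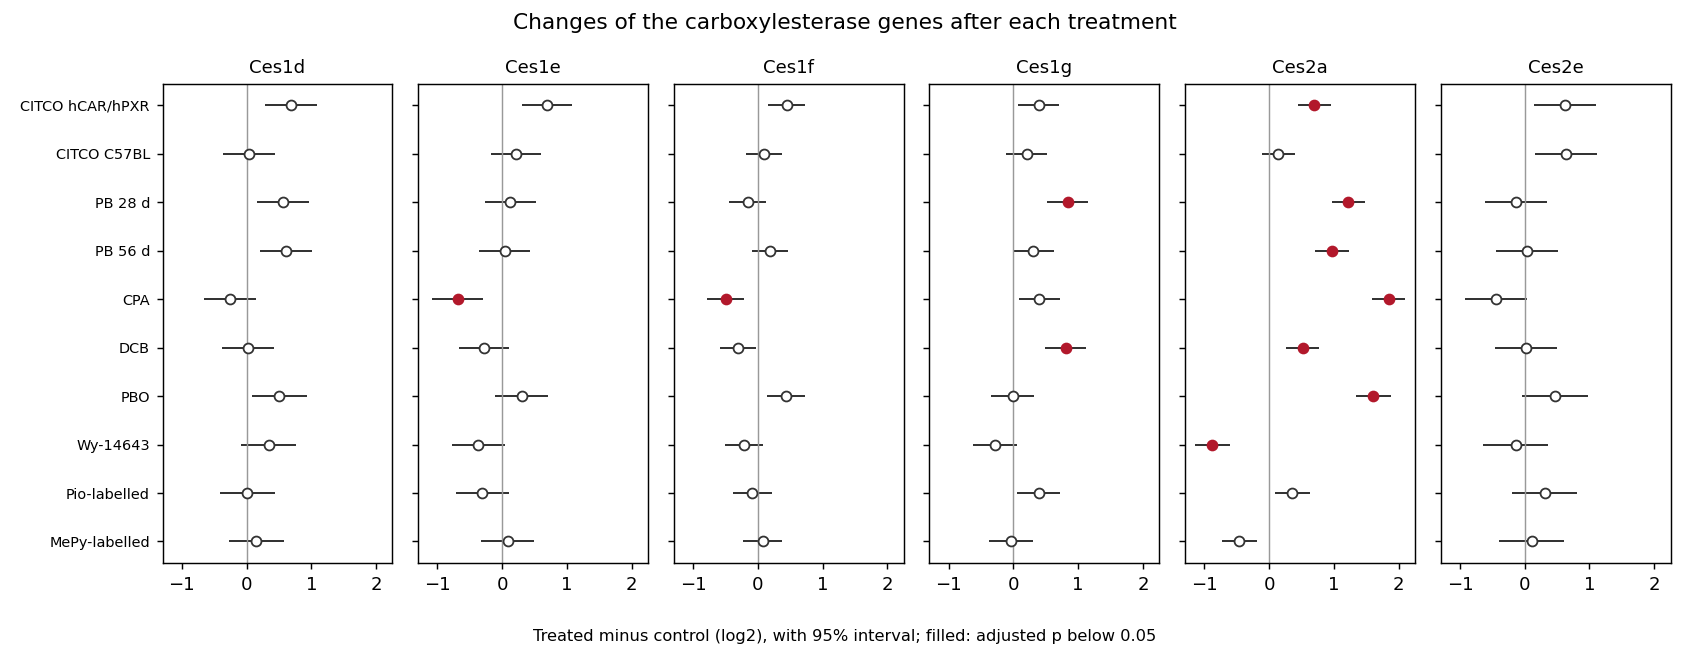
Treated minus control (log2) with 95% interval for the 6 measured genes (panels) in the 10 treatments (rows), filled where the adjusted p was below 0.05. Ces2a is filled in 7 rows, Ces1g in 2, Ces1e and Ces1f in 1 each, and Ces1d and Ces2e in none.

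The shared Ces3a and Ces3b probe set cannot be assigned to either gene. It was at 13.68, 13.43, 13.73, 13.48 and 13.03 in Wy-14643 livers, against 13.93, 13.87, 13.92 and 13.85 in Co1 livers. All 5 treated livers were below the controls, and it fell by 0.42 ± 0.0962 (SE, n = 5 and 4) with an adjusted p of 0.00193 over all 45037 probe sets (limma). It passed in no other treatment. In 1,4-dichlorobenzene livers it was at 13.51 ± 0.14, against 13.78 ± 0.05 in corn oil livers (SD, n = 5 each), a difference of -0.27 without overlap that did not pass (adjusted p = 0.116, limma). Pioglitazone-labelled livers, at 13.81 to 13.85, also lay below the Co5 range of 13.93 to 13.95, and that difference did not pass either.

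Values in Wy-14643 livers were widely spread in several members. Mice 1 and 3 held Ces1d at 12.90 and 12.77, Ces1e at 11.07 and 10.85, Ces1f at 13.08 and 13.01 and Ces2e at 9.18 and 9.07. Mice 2, 4 and 5 of that group held Ces1d at 11.58 to 11.87, Ces1e at 9.93 to 10.39, Ces1f at 12.25 to 12.46 and Ces2e at 7.59 to 8.36. Their acute phase genes averaged 10.68 and 10.95 in mice 1 and 3, and 13.52, 11.61 and 12.56 in mice 2, 4 and 5. These 4 genes had SDs of 0.60, 0.45, 0.40 and 0.75 in Wy-14643 livers, against 0.42, 0.26, 0.13 and 0.35 in Co1 livers, and none passed. Ces2a was at 11.52 and 11.56 in mice 1 and 3 and at 11.23 to 11.84 in the others, all below the Co1 range. The response of Ces2a to Wy-14643 minus that in pioglitazone-labelled livers was -1.24 ± 0.182 (SE, adjusted p = 1.44e-06, limma), where 3.02% of genes passed and the second label is in doubt.

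Ces1f, Ces1e and Ces1d were lower within groups in mice with higher acute phase genes. The relation was computed for the 6 measured members only, so it is not shown to be particular to them among all genes. Over 91 mice, with the group means removed, Pearson's r with the mean of the 23 acute phase genes was -0.57 for Ces1f, -0.50 for Ces1e and -0.37 for Ces1d. Spearman's rho was -0.55, -0.51 and -0.31 for the same genes. The permutation p values of r, from 100000 shuffles within groups, were 1e-05 for Ces1f, the smallest they can give, 2e-05 for Ces1e and 0.00853 for Ces1d. Adjusted over the 6 relations computed they were 6e-05, 6e-05 and 0.0171. For Ces2a r was -0.26 (permutation p = 0.042, adjusted 0.063) and rho was -0.31 (permutation p = 0.00802, adjusted 0.016). For Ces2e r was -0.24 (permutation p = 0.106, adjusted 0.127) and rho was -0.12 (permutation p = 0.347, adjusted 0.416), and for Ces1g r was 0.10 and rho 0.09 (permutation p = 0.411 and 0.43, adjusted the same). Without the 2 mice farthest from the median r was -0.54 for Ces1f, -0.53 for Ces1e, -0.32 for Ces1d and -0.33 for Ces2a, and Ces2a then passed (adjusted permutation p = 0.0104), as it did with the first principal component of the list in place of its mean (adjusted permutation p = 0.0383). Without Co4 and CMC-treated hCAR/hPXR livers r was -0.53, -0.45, -0.34 and -0.18, and of these Ces1d no longer passed (adjusted permutation p = 0.0598).

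**Figure D4:**
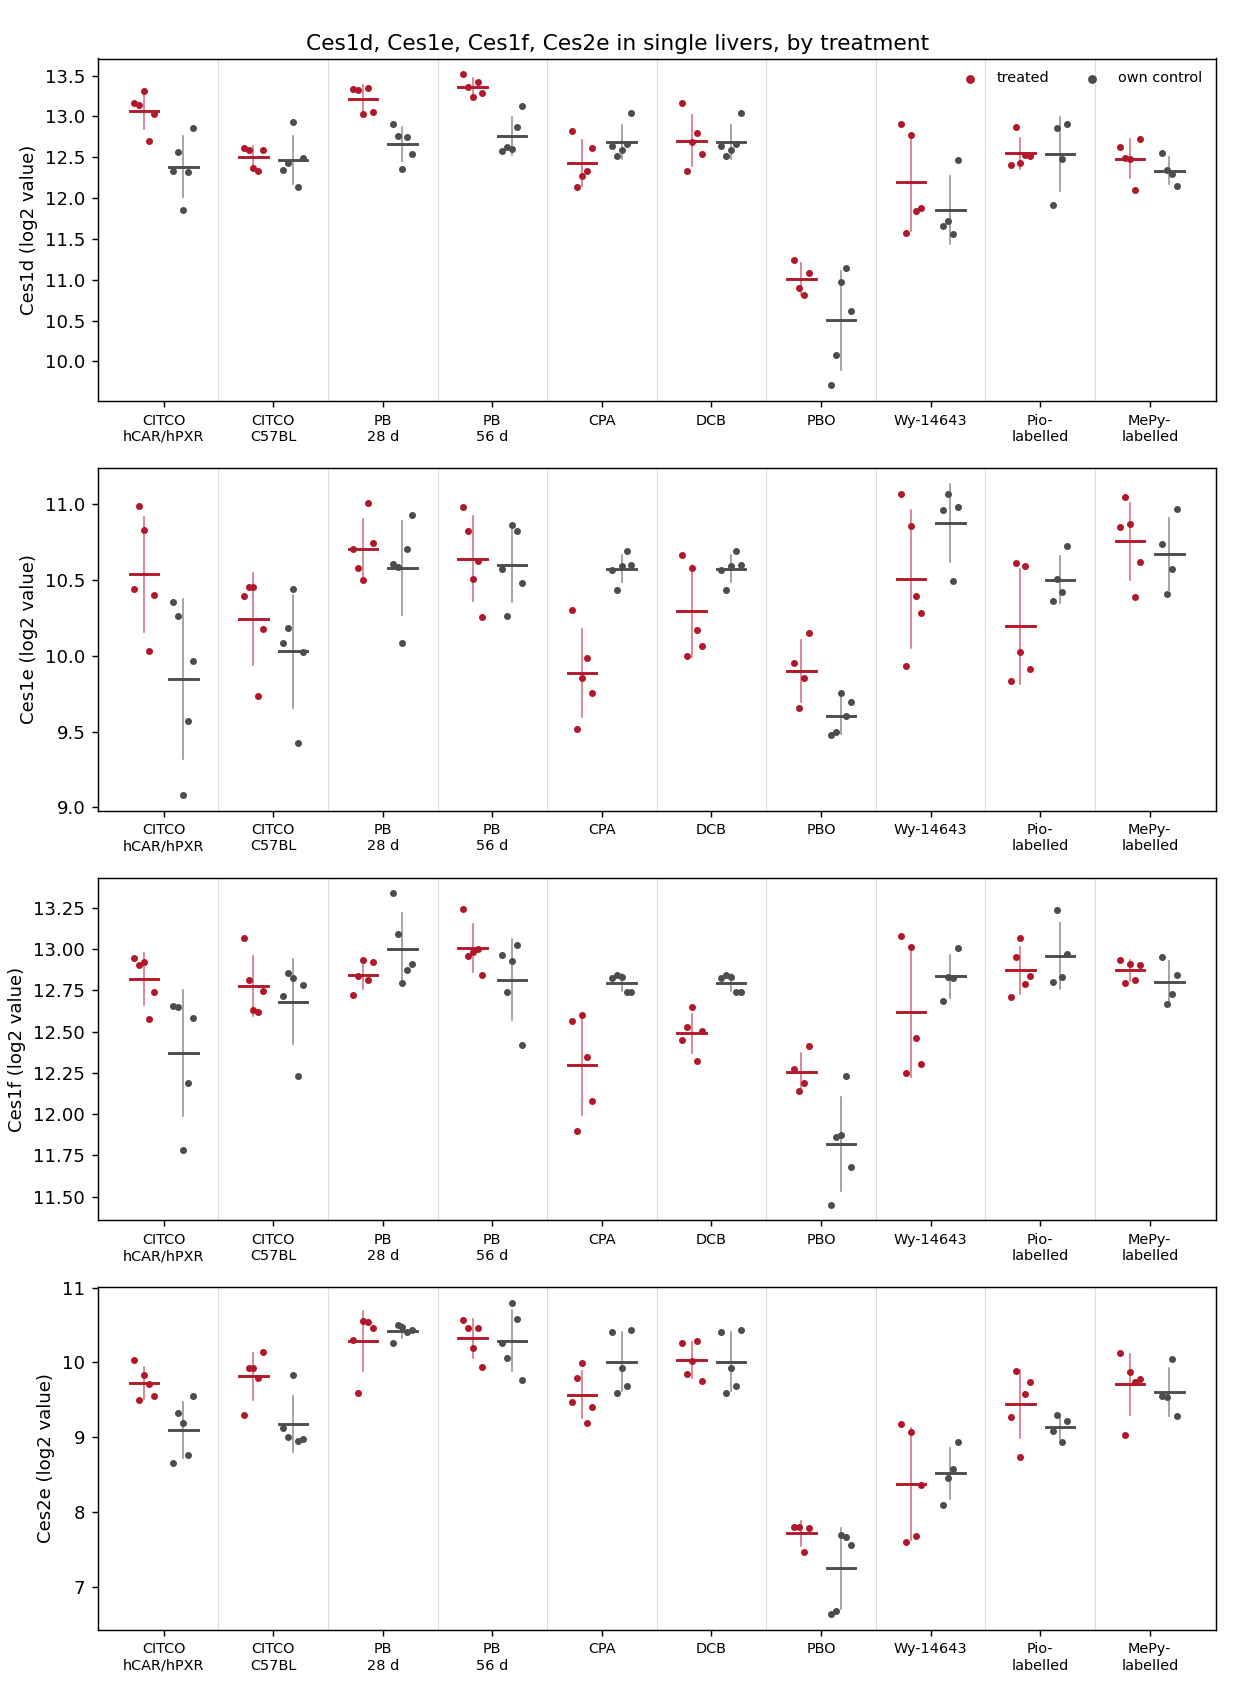
Log2 values of Ces1d, Ces1e, Ces1f and Ces2e (panels from top to bottom) in single livers, treated groups in red left of their own controls in grey, with means (bars) and SD (lines). Cyproterone acetate livers lie below corn oil livers in Ces1e and Ces1f, and Wy-14643 livers are widely spread in all 4 genes. Piperonyl butoxide and Co2 livers have the lowest group means of Ces2e.

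The 7 C57BL control groups of 28 days, which had no active compound, differed from each other in all 6 measured members (F test in limma, adjusted p between 1.98e-19 for Ces2e and 0.00338 for Ces2a), as 42.8% of all genes did. The cohort Co2 had the lowest mean in each. Ces2e was at 6.63, 6.68, 7.69, 7.67 and 7.56 in Co2 livers, against 10.25, 10.50, 10.48, 10.41 and 10.44 in water livers of 28 days, a range of 3.17 between group means. Ces1d was at 9.71, 10.07, 10.98, 11.14 and 10.62 in Co2 livers, against 12.63, 12.51, 12.58, 12.67 and 13.04 in corn oil livers. Neither pair of groups came near to overlapping, and these ranges exceed every treatment difference of the same genes. For Ces2a the range was 0.54, between 11.90 in Co2 livers and 12.45 in Co1 livers, smaller than the rise after cyproterone acetate, piperonyl butoxide or phenobarbital. Without Co2, a setting chosen after seeing the data, the F test still passed for Ces1d, Ces1e, Ces1g and Ces2e, and not for Ces1f and Ces2a. The 42.8% of all genes belongs to the test with Co2, and no share is given for the test without it. Piperonyl butoxide livers had Ces2e at 7.80, 7.80, 7.47 and 7.79 and Ces1d at 11.24, 10.90, 10.81 and 11.08, close to Co2. The neutrophil markers given above were highest in the same 2 groups, and their part in these low levels was not tested.

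Values of some members after piperonyl butoxide depended on the control used. Against Co2, Ces1d and Ces2e differed by 0.50 and 0.47 and did not pass, while against the mean of the 5 CMC cohorts they were lower by 0.93 and 1.02 and passed (adjusted p = 7.24e-06 and 3.65e-05, limma). Ces1e and Ces1f also changed sign, with 0.30 and 0.43 against Co2, not passing, and -0.43 and -0.37 against the mean of the cohorts, passing (adjusted p = 0.0362 and 0.012, limma). Ces1g differed by -0.01 against Co2 and was lower against the mean of the cohorts (-0.42, adjusted p = 0.0105, limma). Ces2a was higher in both, by 1.61 and 1.32.

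**Figure D5:**
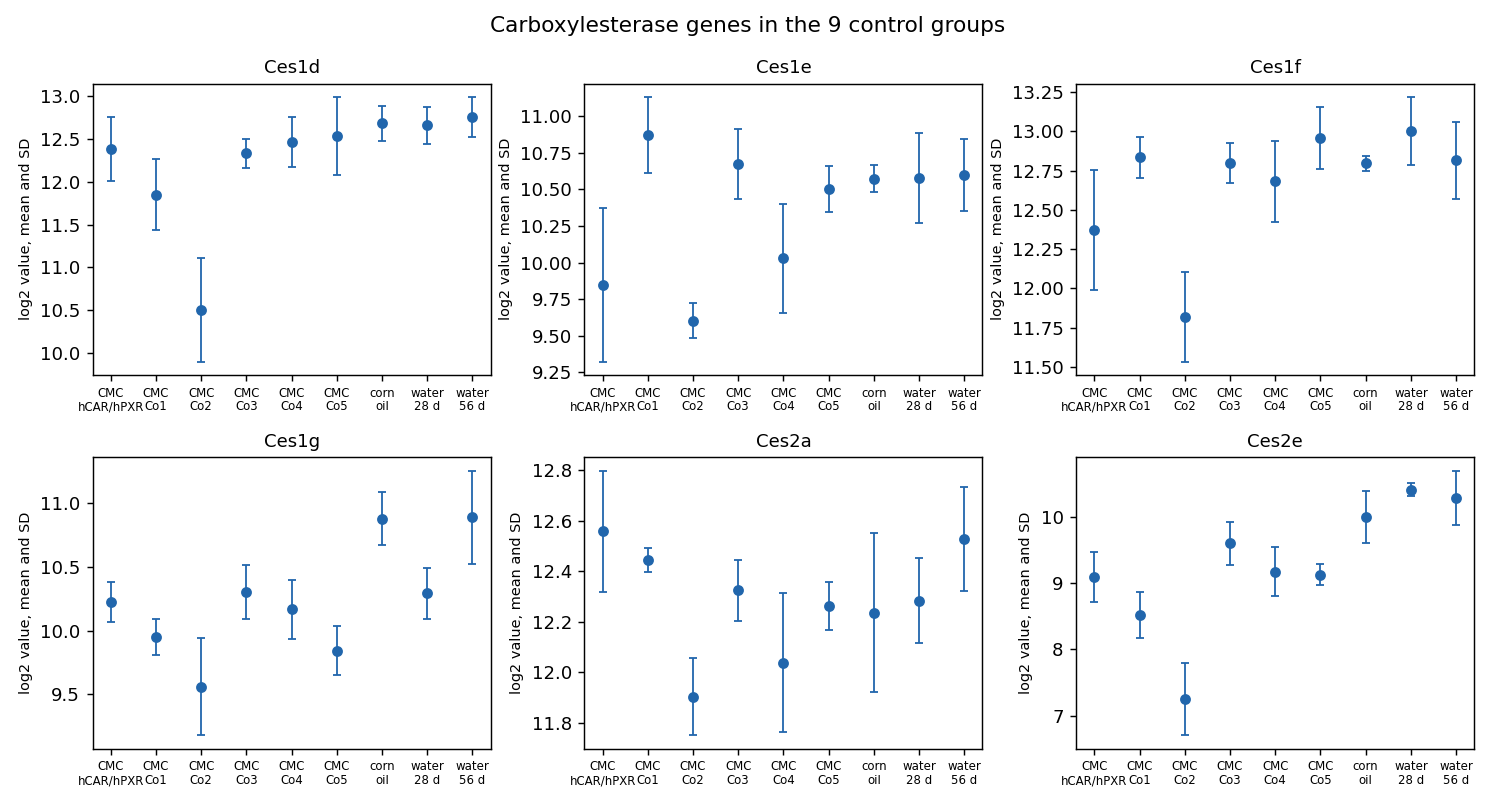
Mean and SD (log2 value) of the 6 genes in the 9 control groups. The CMC cohort Co2 is lowest in the C57BL groups for each gene, with Ces2e at 7.25 against 10.42 in water livers of 28 days.

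Over the members as a list, medians of the 6 differences lay between -0.35 after cyproterone acetate and 0.66 after CITCO in hCAR/hPXR livers, while the medians of all genes lay between -0.04 and 0.02 in the 10 treatments. After CITCO in hCAR/hPXR livers all 6 differences were above 0, from 0.39 for Ces1g to 0.70 for Ces2a. Of these 1 passed, as did 0.0989% of all genes, while all 6 had an unadjusted p below 0.05 (limma). The same unadjusted threshold was met by 1274 of all 18193 genes. In these livers the 23 acute phase genes averaged 12.25 to 12.76 after CITCO, against 13.01 to 14.06 in CMC-treated livers, with no overlap, and control mice 3 and 4, at 13.88 and 14.06, were the lowest of their group in Ces1e, Ces1f and Ces2a. The 14 macrophage markers averaged 7.89 to 8.63 after CITCO, against 7.77 to 9.18 in CMC-treated livers. None of the 23 and none of the 14 passed, while 14 and 1 had an unadjusted p below 0.05 (limma), and their part in the differences of the members was not tested. In C57BL livers, where no member passed, acute phase genes averaged 11.59 to 12.55 after CITCO, against 12.84 to 13.87 in Co4 livers. Within groups, correlations of members were highest between Ces1e and Ces1f (r = 0.63), Ces1d and Ces1e (0.59) and Ces1d and Ces1f (0.58), while Ces1f and Ces1g (0.0039) and Ces2a and Ces2e (-0.05) were near 0, over 91 mice with 1 array for all genes of a mouse, as a description. Over the 19 group means the genes most like Ces2a were Kcnk1 (r = 0.89), Gstm3 (0.87) and Cyp3a44 (0.85). Most like Ces2e were Slmap (0.98), Mfsd8 (0.98) and Prpf18 (0.98), most like Ces1d were 9530068E07Rik (0.95), Ubqln2 (0.94) and Vcp (0.94), and most like Ces1g were Rpa2 (0.93), Mcph1 (0.93) and Gsr (0.93). Ces1e was most like Ces1f (0.84), Ddah1 (0.84) and Aldh3a2 (0.82), and Ces1f most like Cmtm4 (0.91), Gid4 (0.90) and Tlcd4 (0.90). These correlations over 19 points are given as a description.

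Of 12 other carboxylesterase genes 7 were measured, and members of this list passed in 1 of 10 treatments, Wy-14643, where 3 of the 7 fell and none rose, against 10.6% of all genes that passed. In the other 9 treatments 0 to 2 of the 7 had an unadjusted p below 0.05 (limma), as did 874 to 3231 of all 18193 genes. Ces1c, an esterase secreted into plasma, fell to 13.49 in Wy-14643 livers, against 14.02 in Co1 livers (by 0.53 ± 0.073, SE, adjusted p = 6.72e-08, limma). Ces2b fell by 1.15 and Ces5a by 0.40 (adjusted p = 0.0361 and 0.0154, limma). Ces2b averaged 5.63 over all arrays, near the median of all probe set means, 5.24. Ces5a was read by an x type probe set, which may share signal with close family members. Ces1h, Ces2f, Ces2g and Ces4a did not pass in any treatment. None of the 7 passed after any treatment in which Ces2a rose, and Ces2b, which lies between Ces2a and Ces2c, differed by 1.08 after CITCO in hCAR/hPXR livers and by -0.15 after cyproterone acetate. After CITCO Ces2b had an unadjusted p below 0.05 in both hCAR/hPXR and C57BL livers (limma), and passed in neither.

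Of 23 other esterase and lipid hydrolase genes 21 were measured. After cyproterone acetate 5 of the 21 fell and none rose, against 5.32% of all genes that passed, among them Lpl, lipoprotein lipase, by 1.49 and Lipg, endothelial lipase, by 1.08. Abhd6, a monoacylglycerol hydrolase, fell there by 0.73 and Ephx2, soluble epoxide hydrolase, by 0.42. After Wy-14643 3 rose and 2 fell, against 10.6% of all genes that passed, with Lpl higher by 3.88, Mgll, the main monoacylglycerol lipase, by 0.92 and Pnpla2, adipose triglyceride lipase, by 0.63, while Pnpla7 fell by 0.41. Ephx1, microsomal epoxide hydrolase and a known CAR target, rose by 0.89 after piperonyl butoxide and by 0.74 after 1,4-dichlorobenzene. In these treatments 1 and 2 of the 21 rose and none fell, against 0.808% and 3.83% of all genes that passed. After 28 days of phenobarbital 1 fell, Mgll by 0.67, against 0.967% of all genes that passed. At 56 days 1 rose, Nceh1 by 0.63, against 0.566%. Of 12 genes of VLDL assembly 11 were measured, and after cyproterone acetate 3 rose, Apoa4 by 1.65, Tm6sf2 by 0.79 and Apoc3 by 0.20, where 5.32% of all genes passed. After 1,4-dichlorobenzene 2 of the 11 fell, Dgat2 by 0.46 and Cideb by 0.32, against 3.83% of all genes that passed. After 28 days of phenobarbital 1 fell, Plin2 by 0.68, and after piperonyl butoxide 1 rose, Apoa4 by 1.47, against 0.967% and 0.808% of all genes in those treatments. After Wy-14643 Dgat1 rose by 0.43, and Apoa4 fell by 1.83 and Apoc3 by 0.22. None of the 11 passed in the other 5 treatments, where 1 to 3 had an unadjusted p below 0.05 (limma), as did 874 to 1394 of all 18193 genes.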

How the data were processed

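Liver RNA of 91 mice was hybridised to Affymetrix mouse arrays, and the table deposited by the authors holds log2 values of 45037 probe sets. RMA is named in the submitters' processing notes, with no version. RMA equalises array distributions (array medians 5.18 to 5.36), so a change in total RNA would not be seen. Of the probe sets naming 1 gene, that of highest mean over all arrays stood for the gene. Group means were fitted with limma 3.58.1 in R 4.3.3, with a mean-variance trend and 72 residual degrees of freedom, and tests were two-sided and tested on simulated data. Groups and controls came from the labels; replicate numbers did not pair the mice (mean correlation of deviations -0.15 to 0.05) and were no block. Titles of the 28-day phenobarbital arrays carry "(2)", whose meaning is not given. The members, lists and settings were chosen with earlier results of these data known. Named genes were the 8 members, all measured other carboxylesterase genes, up to 4 passing genes per list and comparison with the largest change, readout genes, and the 3 genes most like each member. Close family members may share signal, above all in the s and x type probe sets of Ces1f, Ces1d and Ces5a.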

Additional observations from a re-analysis of the deposited data

Results flagged for a closer look

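Of 114 pairs of a member and a group tested, 7 held 1 mouse far from the others of its group, where chance gives about 1 in 20, or 5.7. Ces2e was low in mouse 2 of the 28-day phenobarbital group, at 9.59 against 10.30 to 10.56 in the other 4, and low in mouse 3 of the piperonyl butoxide group, at 7.47 against 7.79 to 7.80. It was high in mouse 3 of Co4, at 9.83 against 8.95 to 9.12. Ces1f was low in mouse 4 of Co4, at 12.23 against 12.72 to 12.86, and that mouse was the lowest of its group in all 6 members and had the highest acute phase genes, 13.87 on average. In some groups these were different mice. In Co2 mouse 1 was the lowest in 5 of 6 members, and mouse 3 had the highest acute phase genes. Ces1g was low in mouse 3 of the Wy-14643 group, at 9.19 against 9.71 to 9.86. Ces1d was high in mouse 2 of the pioglitazone-labelled group, at 12.88 against 12.40 to 12.53. Ces2a was high in mouse 4 of Co5, at 12.41 against 12.20 to 12.22.

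The response of Ces2a differed between Wy-14643 and pioglitazone-labelled livers by -1.24 by the test of the difference itself, with a fall of 0.88 after Wy-14643 and a difference of 0.36 in pioglitazone-labelled livers. The readouts of the second group go against its label.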

How the results depend on the processing

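No member that passed in the fit of all 91 arrays changed its direction under any setting tried. Ces1d, Ces1e, Ces1f and Ces2e after piperonyl butoxide, which had not passed, changed sign and passed as lower with the mean of 5 CMC cohorts as control, at -0.93, -0.43, -0.37 and -1.02, and Ces1g, -0.01 against Co2, passed as lower at -0.42. The call of Ces2a between CMC-treated hCAR/hPXR and Co4 livers (1 member) became 0 with only those groups in the fit, with the mean of the probe sets of a gene, with array medians subtracted and, in settings chosen after seeing the data, with every probe set tested or without the pioglitazone-labelled, methapyrilene-labelled, Co5 and Co3 livers. With only the groups compared in the fit the count was 2 in place of 1 at 56 days of phenobarbital, where Ces1d joined, 1 in place of 2 after 1,4-dichlorobenzene, where Ces2a was lost, 3 in place of 2 at 28 days of phenobarbital, where Ces1d joined, and 2 in place of 3 after cyproterone acetate, where Ces1f was lost. With the mean of 5 CMC cohorts as control the counts were 3 in place of 0 for CITCO in C57BL livers, 6 in place of 1 for piperonyl butoxide, 3 in place of 0 for pioglitazone-labelled livers, 4 in place of 0 for methapyrilene-labelled livers and 2 in place of 1 for CMC-treated hCAR/hPXR livers. This control mixes cohorts that differ from each other, Co2 among them, and 42.8% of all genes differed between the C57BL control groups of 28 days. No share of all genes under this control is given, so these counts are not a result particular to the members.

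Leaving out 1 mouse at a time gave 1 to 2 members for CITCO in hCAR/hPXR livers, 1 to 3 for cyproterone acetate, 1 to 2 for 1,4-dichlorobenzene, 0 to 1 between CMC-treated strains and 1 to 2 for Wy-14643 minus pioglitazone-labelled livers, where Ces1g joined without mouse 3 of the pioglitazone-labelled group. The other counts stayed the same. With the replicate number as a block, which pairs nothing known, each count was as without it, for example 3 after cyproterone acetate, and the block changed no call. With a first principal component in place of the acute phase mean, the relation of Ces2a passed (r = -0.27, adjusted permutation p = 0.0383). Ces2c was not measured, and probe signals of near-identical family members limit Ces1f and the shared Ces3a and Ces3b probe set.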
